A study of Mus musculus with 6 samples.

Results

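The iron genes described here are 10 genes of cellular iron uptake, storage and reduction: Scara5, Steap3, Tfrc, Slc11a2, Slc40a1, Fth1, Ftl1, Hmox1, Ireb2 and Aco1. Their members were found as every probe that the platform annotation gives to one of these symbols, which gave 21 of the 45281 probes on the array and 10 of its 19057 named genes. The set was put together with results of these arrays known. Scara5 and Steap3 are taken here as the genes chosen by their measured difference between FEAT and vector clones, so that difference is given as a description, with no test. The other 8 genes are taken as added for their function, which the sources used here do not state, and their tests hold under that reading.

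The samples were 6 stable clones of NIH3T3, an immortalized fibroblast line from embryos of NIH Swiss mice, with 1 one-colour Illumina bead array for each clone. The FEAT clones FEAT-3, FEAT-15 and FEAT-20 expressed human FEAT (METTL13), which methylates the elongation factor eEF1A, from a stably integrated coding sequence under the elongation factor 1 alpha promoter. Blasticidin S selection at 10 µg/ml lasted 7 days, after which clones with high FEAT protein were picked. The vector clones ΔccdB-1, ΔccdB-2 and ΔccdB-3 carried the same plasmid, pEF-DEST51, with its ccdB gene deleted and no FEAT, and how they were selected is not given in the sources used here. Each line is 1 clone, so the spread within a group is the spread between 3 separate lines, and with so few arrays every value has limited precision.

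Mammalian cells take up most of their iron as transferrin bound to the transferrin receptor, reduce it in endosomes with STEAP ferrireductases and pass it to the cytosol through a divalent metal transporter. Surplus iron is stored in ferritin, a shell of heavy and light chains, or exported by ferroportin, and heme oxygenase frees iron from heme. The iron regulatory proteins bind short RNA hairpins, which blocks translation of ferritin and stabilises the transferrin receptor transcript when iron is scarce.

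Mean probe intensities of the 6 arrays ran from 616 to 735, and the background limit, set for each array at an intensity of 96.3 to 102, was exceeded by 36.9% to 39.8% of its probes. All 8 fibroblast markers were above the limit on all 6 arrays, with sums of 38888 to 41769 in vector clones and 42608 to 51733 in FEAT clones. The blood and macrophage markers (4 of 5 with a probe) and the liver markers (5 of 5) were above it on no array. Of the erythroid markers (3 of 5 with a probe) and the epithelial markers (4 of 4), the alpha globin gene Hba-a1 was above the limit on 4 arrays, Epor on 5 and Cdh1 on 6, and their summed intensities stayed between 279 and 380 in every clone. None of the marker genes that were tested passed, which were 8 fibroblast, 2 blood and macrophage, 3 erythroid, 1 liver and 2 epithelial genes. The others with a probe fell below the filter on dim probes. The 5 probes of Eef1aknmt, the mouse counterpart of FEAT, differed by -0.59 to 0.03 on the log2 scale with 0 calls, and need not read the human insert.

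Each gene was compared as FEAT minus vector on log2 values after background correction and quantile normalization, with limma, and p-values were adjusted by Benjamini-Hochberg across the 27169 probes that entered the test. Of these, 50 (0.184%) passed an adjusted p of 0.05. With the probe of the highest mean standing for its gene, 30 of 13315 genes (0.225%) passed, and among the 10 iron genes 2 did, Scara5 and Steap3, which is how they were chosen. Of the other 8 genes none passed on any of their 14 tested probes, whose lowest adjusted p was 0.539. The median log2 difference of these 8 genes was -0.071, beside 0.0071 over all genes tested, with 4 positive and 4 negative. The median size of the difference was 0.15 in these 8 genes and 0.13 over all genes.

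**Figure D1:**
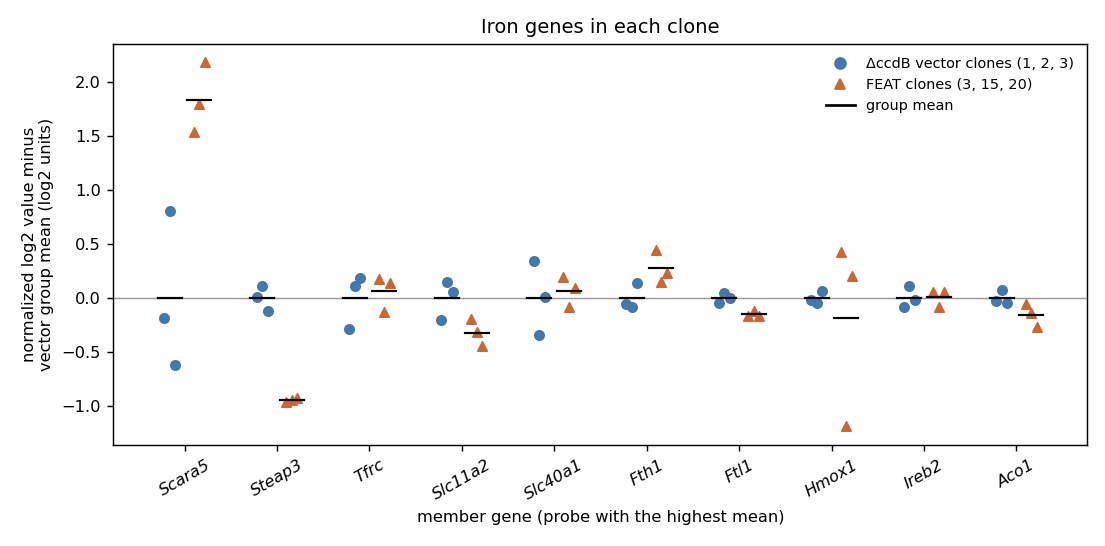
Normalized log2 value of each clone minus the mean of the vector clones, for the probe with the highest mean of each of the 10 genes; points are clones and bars are group means of 3 clones. The Scara5 points of the FEAT clones lie at 1.54 to 2.19 and those of Steap3 at -0.97 to -0.93, while Hmox1 has 1 FEAT clone, FEAT-15, at -1.19.

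Scara5 encodes a scavenger receptor of the cell surface that binds ferritin and so offers a route of iron entry that does not use transferrin. Its main probe, ILMN_3008068, drawn from a RefSeq mRNA record, read intensities of 1279 in ΔccdB-1, 2245 in ΔccdB-2 and 873 in ΔccdB-3. In FEAT-3, FEAT-15 and FEAT-20 it read 3455, 5008 and 6794. The groups did not overlap, and ΔccdB-2 was the highest vector clone while FEAT-20 was the highest of all. The log2 difference was 1.84 (SE 0.30, n = 3 clones each), a 3.58-fold higher level in the FEAT clones. Without ΔccdB-2 this value was 2.24 and without ΔccdB-3 it was 1.53.

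The vector clones themselves spread widely for this gene. Its SD within groups was 0.57 on the log2 scale, larger than that of 99.0% of the tested probes. The other Scara5 probe, ILMN_2548435, drawn from a cDNA clone record, read 97.1 to 122 in the vector clones and 110 to 126 in the FEAT clones. These ranges overlap and lie close to the background limit, and the log2 difference was 0.19 (SE 0.14). The transcript that this dimmer probe reads was not resolved here.

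Steap3 encodes a six-transmembrane ferrireductase of endosomes, which turns ferric into ferrous iron after uptake through the transferrin receptor. Its main probe, ILMN_2584709, drawn from a cDNA clone record, read 1366, 1312 and 1143 in ΔccdB-1, ΔccdB-2 and ΔccdB-3. In FEAT-3, FEAT-15 and FEAT-20 it read 599, 750 and 780. Every FEAT clone lay below every vector clone, and on the normalized scale the 3 FEAT clones were nearly level, at -0.97, -0.95 and -0.93 against the vector mean. The log2 difference was -0.95 (SE 0.13, n = 3 clones each), which leaves 0.518 of the vector level. Its SD within groups was 0.081, lower than that of most tested probes (6.39% were lower still).

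The 3 other Steap3 probes were dim and did not show this difference. ILMN_2512949, from a RefSeq mRNA record, read 99.5 to 121 in vector clones and 91.1 to 125 in FEAT clones, above the background limit on 3 and 1 arrays. ILMN_1235400, from a cDNA clone record, read 94.7 to 115 and 101 to 122, above the limit on 1 and 3 arrays. Their log2 differences were -0.25 (SE 0.17) and 0.11 (SE 0.15). ILMN_1244848, from a RefSeq mRNA record, was above the limit on no array, so its fitted log2 difference of 0.092 is one between background signals. The lower level of Steap3 therefore rests on 1 of its 4 probes.

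RefSeq lists 4 transcription starts for Steap3, and the start used by the transcript of each probe was not resolved here. The 60 bases before each start are shown because the probes disagree and the gene has several starts (build GRCm38.p6, minus strand, chr1:120271081-120271140, chr1:120270271-120270330, chr1:120265287-120265346 and chr1:120258879-120258938, from the most upstream start to the most downstream). Capitals mark the GC box GGGCGG and the CCAAT box CCAAT, each on either strand.
Steap3 start 1: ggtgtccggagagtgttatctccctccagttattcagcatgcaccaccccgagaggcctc
Steap3 start 2: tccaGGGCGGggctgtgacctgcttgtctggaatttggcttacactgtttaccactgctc
Steap3 start 3: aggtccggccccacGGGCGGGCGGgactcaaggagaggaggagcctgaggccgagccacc
Steap3 start 4: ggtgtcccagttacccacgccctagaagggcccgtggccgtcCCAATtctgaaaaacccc
Start 2 holds 1 GC box in this stretch and start 3 holds 2 that overlap, start 4 holds 1 CCAAT box, and start 1 holds neither. In windows from 250 bases before to 50 bases after a start, GGGCGG was found in 35.7% and CCAAT in 37.4% of all 32851 RefSeq windows. These windows are longer than the stretches shown. Over them, start 3 of Steap3 held 3 GC boxes, and the counts at its other starts were the same as in the stretches. These are matches of letters and no evidence of binding.

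The other STEAP genes were set beside Steap3. Steap2, another ferrireductase, read 2488, 3884 and 1952 in ΔccdB-1, ΔccdB-2 and ΔccdB-3, and 4999, 5742 and 5589 in FEAT-3, FEAT-15 and FEAT-20. The groups did not overlap, and the log2 difference was 0.99 (SE 0.23, limma, adjusted p = 0.158), which did not pass. Steap1, a relative that takes part in metal reduction together with other STEAP proteins, read 1806, 3673 and 1692 in the vector clones and 3386, 4528 and 3344 in the FEAT clones. Here ΔccdB-2 lay among the FEAT clones, and the log2 difference was 0.69 (SE 0.28, adjusted p = 0.479).

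Scara5, Steap1 and Steap2 thus shared their highest vector clone, ΔccdB-2. With that clone left out, Steap2 and Steap1 passed, at log2 differences of 1.30 and 1.08, as did 158 probes in all against 50 with every clone. Leaving out the highest vector clone of these genes by itself raises their differences, so this supports nothing. Steap1 and Steap2 each passed in only 1 of 13 alternative settings. In the RefSeq gene table of GRCm38.p6, Steap1 and Steap2 lie on chromosome 5 with 0 protein-coding genes between their starts. Steap4 lies on chromosome 5 as well, with 3 between its start and that of Steap1, while Steap3 lies on chromosome 1. Steap4, the remaining family member, read 88.9 to 103 in vector clones and 93.7 to 116 in FEAT clones on its brighter probe, above the limit on 1 and 2 arrays, with a log2 difference of 0.19 (adjusted p = 0.739).

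**Figure D2:**
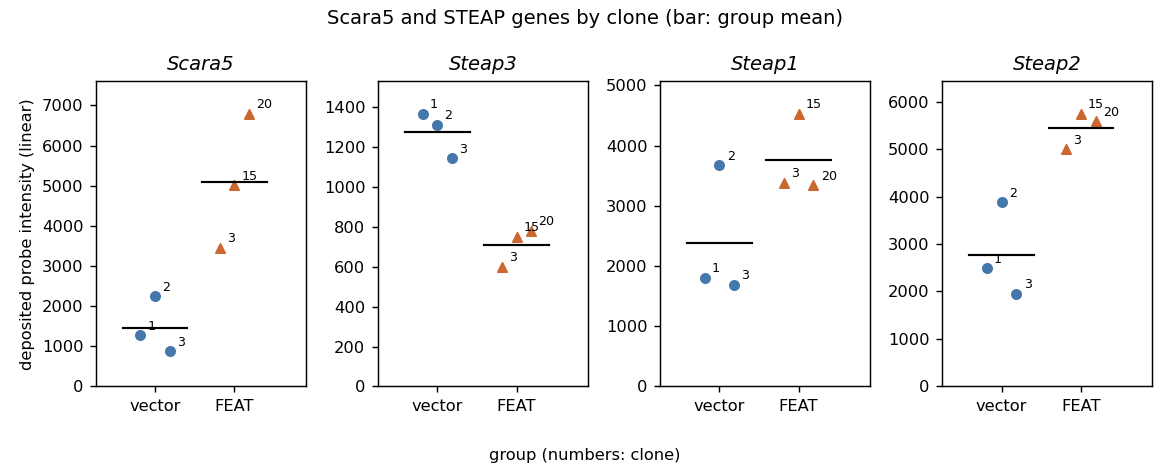
Deposited linear intensities of the main probes of Scara5, Steap3, Steap1 and Steap2 in each clone, with clone numbers beside the points and bars for the means of 3 clones; each panel has its own axis from 0. Steap3 is lower in all 3 FEAT clones, and the vector clone numbered 2 is the highest vector clone for Scara5, Steap1 and Steap2.

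Tfrc encodes the transferrin receptor, the main entry route of iron. Its probe ILMN_2860804 read 2280, 2743 and 2921 in ΔccdB-1, ΔccdB-2 and ΔccdB-3 and 2603, 2610 and 3276 in FEAT-3, FEAT-15 and FEAT-20. The groups overlapped, with a log2 difference of 0.061 (95% interval -0.29 to 0.41, limma, adjusted p = 0.942). The other probe, ILMN_2619848, read 2162 to 2963 in vector clones and 2303 to 2777 in FEAT clones, a log2 difference of -0.047 (95% interval -0.42 to 0.33, adjusted p = 0.963). The normalized values of these probes varied together across the 6 clones (Pearson r = 0.914 over 6 clones and 0.957 over the 3 vector clones, both descriptions).

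Slc11a2, the divalent metal transporter that carries ferrous iron out of endosomes, had the smallest unadjusted p of the 8 tested genes. Its probe ILMN_2665063 read 472, 534 and 507 in the vector clones and 398, 453 and 427 in the FEAT clones. The deposited intensities did not overlap, nor did the values with median scaling or the deposited value table. The normalized values of the main setting did, since FEAT-3 was level with ΔccdB-1 there. The log2 difference was -0.32 (95% interval -0.64 to -0.0081), with an unadjusted p of 0.0452 and an adjusted p of 0.539 (limma), so it did not pass. An unadjusted p under 0.05 was reached by 10.1% of all genes tested and by 1 of these 8.

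The probes of Slc11a2 differed in sign. ILMN_2578829, from a cDNA clone record, read 202 to 283 in vector clones and 248 to 313 in FEAT clones, a log2 difference of 0.21 (95% interval -0.19 to 0.60, adjusted p = 0.782). Its correlation with ILMN_2665063 was 0.10 over the 6 clones and 1.00 over the 3 vector clones (both descriptions). An r over 3 points carries little information. The group differences of these probes had opposite signs. ILMN_1243129 was tested but above the background limit on no array, so its fitted difference of 0.18 (adjusted p = 0.765) is one between background signals.

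Slc40a1 encodes ferroportin, the exporter of iron. Its probe ILMN_2747923 read 499, 300 and 369 in the vector clones and 383, 392 and 452 in the FEAT clones. The vector clones spanned the whole range, with both the highest and the lowest value, and the log2 difference was 0.067 (95% interval -0.32 to 0.45, limma, adjusted p = 0.942). The other probe of Slc40a1 was above the limit on no array, fell below the filter on dim probes, and is the 1 of 21 probes that was not tested.

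Fth1 encodes the ferritin heavy chain, which oxidises iron on entry into the shell, and Ftl1 the light chain, which favours its storage. Both have close copies in the mouse genome, and which copies a probe also reads is uncertain. Their main probes differed in sign, though that of Fth1 has the highest mean only through the FEAT clones. The other Fth1 probe had a log2 difference of 0.0014. The upstream sequences of both genes are shown for that contrast, and because their products form 1 shell. These are the 100 bases before the downstream of 2 listed Fth1 starts (GRCm38.p6, chr19:9982546-9982645, plus strand) and before the Ftl1 start (chr7:45459887-45459986, minus strand), with the same boxes in capitals.
Fth1: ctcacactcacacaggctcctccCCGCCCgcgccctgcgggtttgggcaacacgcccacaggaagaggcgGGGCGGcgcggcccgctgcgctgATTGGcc
Ftl1: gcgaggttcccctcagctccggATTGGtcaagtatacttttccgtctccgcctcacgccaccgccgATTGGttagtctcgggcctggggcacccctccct
Both stretches hold CCAAT boxes on the opposite strand, 1 in Fth1 and 2 in Ftl1, and the Fth1 stretch also holds 2 GC boxes. The core of the antioxidant response element, TGACNNNGC on either strand, was found in none of the 11 windows of the 6 iron genes with an entry and in 12.4% of all windows. The windows end 250 bases before a start and Hmox1 has none, so a match further away could not be seen.

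The Fth1 probe ILMN_2876066 read 30945, 27670 and 32202 in ΔccdB-1, ΔccdB-2 and ΔccdB-3 and 42521, 33258 and 35285 in FEAT-3, FEAT-15 and FEAT-20. The FEAT clones lay above the vector clones, with FEAT-3 the highest, and the log2 difference was 0.28 (95% interval -0.03 to 0.58, limma, adjusted p = 0.596), which did not pass. With median scaling or the deposited value table the groups overlapped. The other Fth1 probe, ILMN_2876071, read 30115 to 33660 in vector clones and 30142 to 33750 in FEAT clones, a log2 difference of 0.0014 (95% interval -0.29 to 0.30, adjusted p = 0.999). It gave -0.044 with median scaling and -0.038 with the deposited value table. In the vector clones it was the brighter Fth1 probe, at a mean intensity of 31607 against 30273. ILMN_2876066 thus had the highest mean only through the FEAT clones. The Fth1 probes correlated at r = 0.22 over the 6 clones and 0.953 over the 3 vector clones, both descriptions. The highest intensities of any probe were 42981 to 49526 on the 6 arrays, so both Fth1 probes lay near the top of the scale, and whether the scale compresses their difference was not tested.

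The Ftl1 probe ILMN_1229517 read 26490, 25368 and 23540 in the vector clones and 20312, 23477 and 24257 in the FEAT clones. On the normalized scale the 3 FEAT clones lay below the 3 vector clones, at -0.17, -0.12 and -0.17 against the vector mean, although FEAT-20 read above ΔccdB-3 before normalization. The log2 difference was -0.15 (95% interval -0.42 to 0.12, limma, adjusted p = 0.767), which did not pass. The dim Ftl1 probe, ILMN_2816707, read 99.5 to 108 and 90.8 to 105, above the background limit on 3 and 1 arrays, with a log2 difference of -0.24 (adjusted p = 0.617).

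Hmox1 encodes the inducible heme oxygenase, which frees iron from heme and is a stress gene. Its FEAT clones fell on both sides of its vector clones. Its probe read 1312, 1168 and 1277 in ΔccdB-1, ΔccdB-2 and ΔccdB-3, and 1486, 624 and 1634 in FEAT-3, FEAT-15 and FEAT-20. The vector clones were close together, FEAT-15 lay below all of them, and FEAT-3 and FEAT-20 lay above all of them. The log2 difference of the groups was -0.19 (95% interval -0.90 to 0.53, limma, adjusted p = 0.907), and without FEAT-15 it was 0.32 (adjusted p = 0.658). The SD within groups was 0.62, larger than that of 99.2% of tested probes.

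Ireb2 and Aco1 encode the iron regulatory proteins, Aco1 being also the cytosolic aconitase when it carries its iron-sulphur cluster. The Ireb2 probe ILMN_1225719 read 647, 666 and 617 in the vector clones and 594, 666 and 753 in the FEAT clones, a log2 difference of 0.0082 (95% interval -0.28 to 0.29, limma, adjusted p = 0.991). The other Ireb2 probe, ILMN_3161612, gave -0.051 (95% interval -0.34 to 0.24, adjusted p = 0.942), and the probes moved together across clones (r = 0.834 over 6 clones and 0.883 over the 3 vector clones, both descriptions). The Ireb2 groups overlapped on both probes.

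Aco1 read 297, 289 and 270 in ΔccdB-1, ΔccdB-2 and ΔccdB-3 and 249, 281 and 267 in FEAT-3, FEAT-15 and FEAT-20. On the normalized scale all FEAT clones were below all vector clones, by a mean of only -0.16 (95% interval -0.44 to 0.13, adjusted p = 0.772). Among the 8 tested genes, the groups did not overlap on the normalized scale in 3, with Fth1 higher and Ftl1 and Aco1 lower. Fth1 enters this count on ILMN_2876066, which has the highest mean only through the FEAT clones. On ILMN_2876071 the Fth1 groups overlapped. Over all genes tested the groups did not overlap in 15.2%, 7.95% higher and 7.24% lower.

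**Figure D3:**
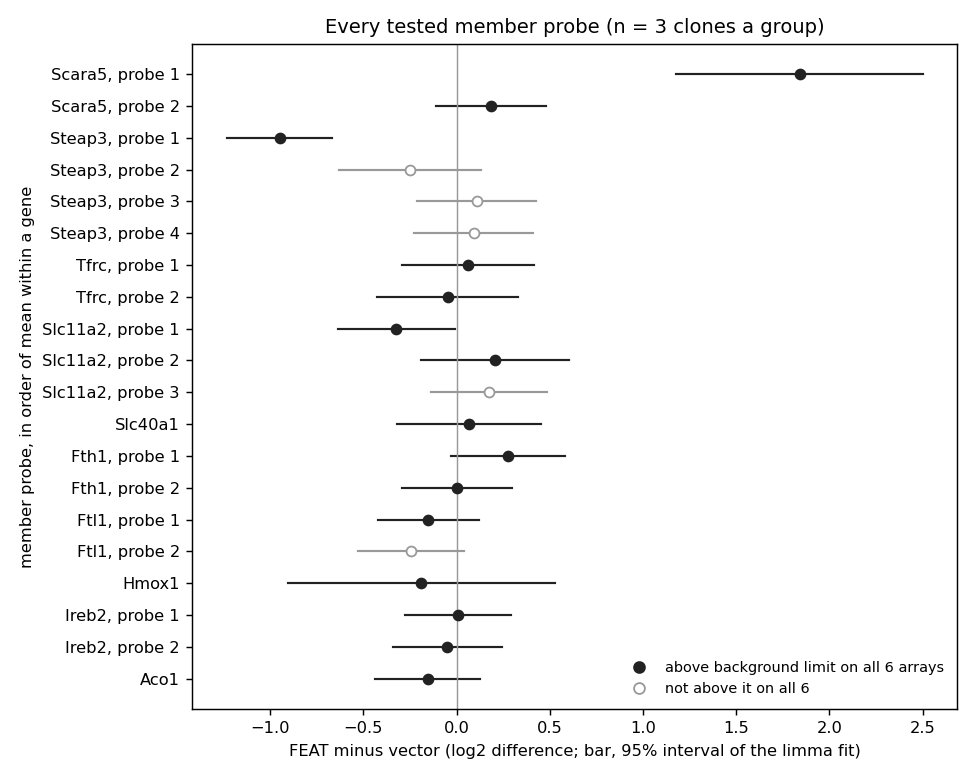
Log2 difference, FEAT minus vector, of all 20 tested probes of the iron genes, with 95% intervals of the limma fit (3 clones a group); filled points were above the background limit on all 6 arrays. The main probes of Scara5 and Steap3, on which those genes were chosen, stand at 1.84 and -0.95. Their intervals come from the values used for that choice, so they are a description and test nothing. The 14 probes of the other 8 genes lie between -0.32 and 0.28. Differences of probes above the limit on no array are between background signals.

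Other genes of iron transport, iron-sulphur cluster assembly and heme metabolism were taken as a list of 60, of which 57 had a named probe and 48 were tested. None passed over all genes tested (0.225% of all genes did). An unadjusted p under 0.05 (limma) was reached by 3 of the 48, against 10.1% of all genes tested. The median log2 difference was -0.017, with 22 positive and 26 negative. On the normalized scale the groups did not overlap in 5 of the 48, against 15.2% of all genes tested, with Steap2, Slc46a1 and Fbxl5 higher and Abcb6 and Urod lower. With median scaling or the deposited value table the groups of Slc46a1, Fbxl5 and Abcb6 overlapped.

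Beside Steap2 and Steap1, the genes of the list with the smallest p had small or uneven differences. Pcbp1, an iron chaperone that loads ferritin, read 9886 to 11206 in vector clones and 10190 to 15256 in FEAT clones (log2 difference 0.29, adjusted p = 0.597). Slc25a37, mitoferrin, which brings iron into mitochondria, read 493 to 618 and 404 to 545 (-0.29, adjusted p = 0.615). Abcb6, a porphyrin transporter, read 391 to 485 and 336 to 452 (-0.29, adjusted p = 0.611). Isca2, an iron-sulphur cluster assembly factor, was not above background on any vector array and was above it on 2 of 3 FEAT arrays. It did not pass (limma, adjusted p = 0.466), and its bound of 1.02-fold uses a FEAT mean that includes FEAT-3, below its own limit. That probe is from a cDNA clone record, and the other Isca2 probe, from a RefSeq mRNA record, was above background on no array. Tmprss6, a protease of hepcidin control, was above background on 2 vector arrays and no FEAT array, which gives no bound above 1 (adjusted p = 0.577).

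Heph encodes hephaestin, a ferroxidase that works beside ferroportin in iron export. On its probe ILMN_2734252 the vector clones read 79.0, 81.0 and 75.9, FEAT-3 and FEAT-20 read 80.5 and 89.0, and FEAT-15 read 423. The signal above background was thus seen in 1 clone, and the comparison of the groups did not pass (adjusted p = 0.619). A second probe, ILMN_2726128, showed the same clone apart, at 242 in FEAT-15 and 70.8 to 84.2 in the other 5 clones, while the remaining 3 probes were above the limit on no array. FEAT-15 is also the clone with the low Hmox1 value.

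**Figure D4:**
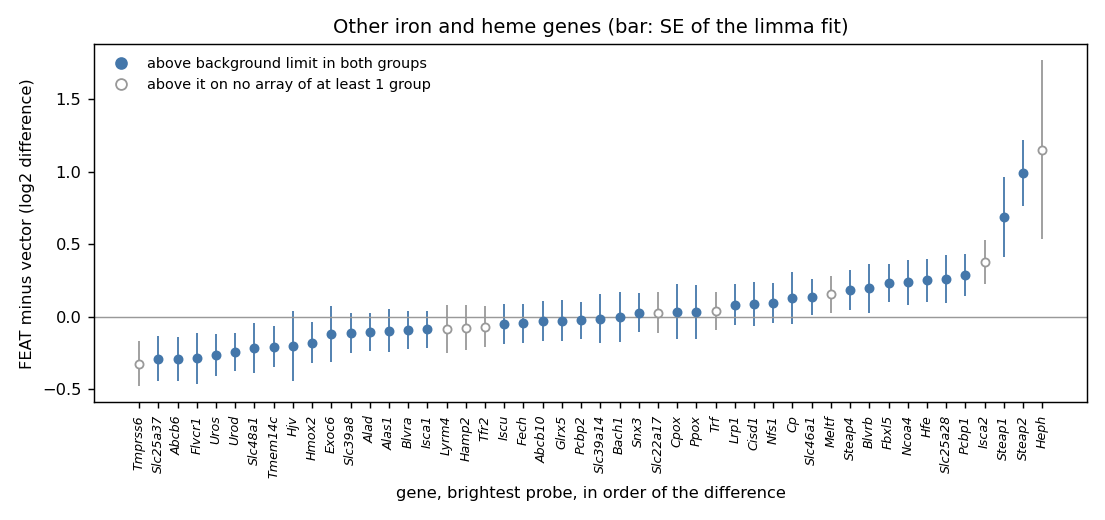
Log2 difference, FEAT minus vector, with the SE of the limma fit, for the 48 tested genes of the wider iron and heme list in order of the difference, 1 probe a gene. Open points mark probes above the background limit on no array of at least 1 group, whose place in the order is not measured, Heph and Tmprss6 among them; Steap1 and Steap2 stand at 0.69 and 0.99, and none of the 48 passed the test.

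The genes most like Scara5 and Steap3 across the 6 clones were found by Pearson correlation of normalized log2 values, as a description that includes the difference between groups. For Scara5 these were Akap9 (r = 0.998), Klhl15 (0.994), Dgat2 (0.993), Hnrnpl (0.993) and Srp72 (0.991). Dgat2, an enzyme of triglyceride synthesis, had a log2 difference of 0.70 (limma, adjusted p = 0.206), and the other 4 differed by 0.18 to 0.48. For Steap3 they were Slc6a4 (r = 0.998), Atp6v1a (0.994), Dvl2 (0.991), Kif1b (0.990) and Pomgnt2 (0.990), with differences of -0.54 to -0.19, and none of the 10 passed. After the group means were taken out, r stayed between 0.973 and 0.994 for the 5 genes like Scara5 but ran from 0.284 (Pomgnt2) and 0.524 (Dvl2) to 0.917 (Slc6a4) for those like Steap3. The genes were picked for the highest r among all tested named probes over only 6 clones, so high values follow from the choice. The r within groups reuses the same values. The SD within groups was 0.57 for Scara5 and 0.081 for Steap3, so the r of Steap3 is mostly the group difference.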

How the data were processed

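Per the labels' protocols, RNA from RNeasy columns was amplified by Illumina TotalPrep, carried Cy3, and went onto 1 bead array for each clone. The submitters' processing notes name BeadStudio, and its version, its settings and any slide grouping are not stated there. The authors deposited linear intensities of probes, with the background still in them (lowest 50.1 to 53.1) and no detection p. The deposited value table held the same intensities multiplied by 1 factor per array (0.925 to 1.10), to a mean of 680 on every array, and was used as an alternative.

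R 4.3.3 and limma 3.58.1 were used: normexp background correction with an offset of 16, quantile normalization, log2, the top 60% of probes by mean (27169), lmFit and eBayes on 3 against 3 clones, two-sided, called at a Benjamini-Hochberg adjusted p under 0.05 over that whole table. Differences of dim probes depend on the normexp step. With 3 clones a group the smallest two-sided p of an exact permutation test is 0.1, so none was run. Intensities in the text are the deposited values, and log2 differences and folds come from normalized values, so their ratios can differ. The background limit of an array was the mode of its log2 intensities plus 3 times the root mean square distance of the values below it. A gene above it on no array of 1 group has only a bound, from the bright group's normalized mean against the limit or the probe's own value, whichever was higher on each array. Levels of different probes are not compared.

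Of the probes, 34885 had 1 gene in the platform annotation, 18 several and 10378 none. Symbols were checked against the RefSeq gene table of GRCm38.p6, and 0 needed an update. Promoter windows came from RefSeq (GRCm38.p6) and held 6 of the 10 genes. No label names the build behind the array's probes.

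The genes and the lists were chosen with earlier results of these data known. The text names all probes of the 10 genes, those of the wider list past the threshold or among its 8 smallest p, and the 5 genes most correlated with Scara5 and with Steap3. Steap4, the genes named only because their groups did not overlap, and the further probes of Heph and Isca2 were named after their values were seen. The fit was tested on simulated data.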

Additional observations from a re-analysis of the deposited data

How the results depend on the processing

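No paired analysis was possible because the groups share 1 clone number, 3, which only names a clone. The number of iron genes past the threshold was fixed at 2 in the main setting by the choice of Scara5 and Steap3, so its values under other settings are a description and support nothing. It was 1 without background correction, 1 with an offset of 50, 1 with the top 40% of probes and 1 with a variance trend. In each of these the gene that passed was Steap3. With the mean of a gene's probes the number was 0 (1 reached an unadjusted p under 0.05 in limma). It ran from 0 to 2 with a clone left out. Scara5 passed in 4 and Steap3 in 10 of the 13 alternative settings, also a description. The log2 difference of Scara5 stayed between 1.53 and 2.24 and that of Steap3 between -1.01 and -0.87 over the 13 settings of their main probes. The wider list had 0 calls in every setting other than the omission of ΔccdB-2, so it ran from 0 to 2 with a clone left out. All probes called ran from 0 (without ΔccdB-1, where 1934 had an unadjusted p under 0.05) to 158 (without ΔccdB-2) and were 10 without ΔccdB-3 and 18 without FEAT-3.

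The 14 tested probes of the other 8 genes gave 181 values under the alternatives, none past the threshold (lowest adjusted p 0.394). Signs changed in 16 of them, on 8 probes whose main differences were at most 0.21 in size. The Fth1 probe ILMN_2876071 gave -0.044 with median scaling and -0.038 with the authors' scaled table. In omissions of a clone, it ran from -0.052 to 0.072, the Tfrc probes from -0.085 to 0.16 and from -0.20 to 0.094, Slc11a2 (ILMN_2578829) from -0.0049 to 0.36, Slc40a1 from -0.11 to 0.24, Hmox1 from -0.49 to 0.32, and the Ireb2 probes from -0.037 to 0.062 and from -0.11 to 0.0061. The cause of these changes was not tested. Signals near the background limit restrict what the dim probes can show.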
